A study of Mus musculus with 14 samples.

Results

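The neutrophil granule genes S100a8, S100a9, Ngp, Camp, Ltf and Lcn2, the granulocyte receptor gene Csf3r, and Plac8 were followed in all 14 arrays of a study of mice with floxed FoxO alleles. They are 8 of the 18193 genes named on the array, and each had 1 probe set. S100a8 and Plac8 were picked from their rise in Cre+ liver sinusoidal endothelial cells in these same arrays, so their difference there is described without a test. The other members are listed as neutrophil genes.

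RNA from 6 samples of liver sinusoidal endothelial cells (LSEC, 3 per genotype), 4 of lung endothelial cells and 4 of thymus (2 per genotype each) was put on Affymetrix arrays of mouse genes, each sample on its own array. All mice, controls included, were homozygous for floxed Fk1, Fk2 and Afx, older names of the transcription factor genes Foxo1, Foxo3 and Foxo4, on an FVBn background. Controls were MxCre-, without the transgene, and experimental samples were MxCre+, with Cre recombinase under an interferon-inducible promoter that is not limited to endothelial cells. They are called Cre+ below. The labels give no age, no way in which Cre was induced or cells were isolated, and no statement that replicates came from separate animals, so p-values measure the spread between these samples, which may be technical.

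Levels are log2 probe set intensities after quantile normalization, and a difference of 1 is a doubling. Arrays of the same group correlated at 0.970 to 0.987 over genes. On the Foxo1 probe set with the largest fall in LSEC, the Cre+ arrays lay between 4.36 and 5.44 in LSEC, 6.85 and 7.15 in lung and 6.24 and 6.62 in thymus, against 8.0 to 8.58 in all controls. The floxed genes did not all read lower: a Foxo3 probe set had means of 9.49 in control and 8.91 in Cre+ LSEC, but 8.25 and 8.55 in lung and 8.63 and 9.09 in thymus, and another Foxo3 probe set had 8.92 and 9.60 in thymus. A Foxo4 probe set had means of 7.12 in control and 4.98 in Cre+ LSEC, 7.47 and 6.37 in lung and 8.09 and 4.85 in thymus. Another Foxo4 probe set had 6.58 and 6.48 in LSEC, 6.67 and 6.06 in lung and 6.33 and 6.26 in thymus. Whether the probes of these genes lie in the deleted parts was not tested. The 10 LSEC markers include the scavenger receptor gene Stab2. Their log2 summed levels were 14.1 to 14.7 in control LSEC and 12.2 to 13.1 in Cre+ LSEC. Between these groups 8 of the 10 were called lower in Cre+ LSEC (limma). Of all 13034 genes tested, 790 were called in that comparison, 366 of them higher and the rest lower. The lung samples also held markers of other cells: 9 lung epithelial genes had log2 sums of 13.6 to 14.1 there and 10.5 to 10.9 in LSEC, and 10 mesenchymal genes had 14.6 to 14.9 and 11.69 to 12.05. The 12 pan-endothelial genes summed to 13.1 to 13.7 in lung and 10.2 to 10.4 in thymus. In thymus the 9 T cell genes summed to between 14.83 and 14.97. For every gene below, fewer cells of a type and less RNA per cell cannot be told apart.

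Neutrophils are short-lived phagocytes that leave the bone marrow loaded with granules. Ngp, Camp, Ltf and Lcn2 are secondary granule genes, switched on in marrow precursors under C/EBP and PU.1 factors and largely silent in circulating neutrophils, whereas S100a8 and S100a9, the subunits of the calcium-binding heterodimer calprotectin, fill the cytosol of mature neutrophils and monocytes. Some members are not limited to granulocytes: Lcn2 is an acute phase gene in liver and epithelia, and Plac8 is made by several myeloid, lymphoid and epithelial cells. Csf3r, the receptor for granulocyte colony-stimulating factor (G-CSF), drives granulocyte production.

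Stretches upstream of S100a8, S100a9, Plac8 and Lcn2 are shown because these are the members whose Cre+ LSEC arrays all stood above the control arrays. Each is the 250 bases before the annotated start, taken from RefSeq (GRCm38.p6), 5′ to 3′ on the gene's strand. The windows are chr3:90668821-90669070 (plus strand) for S100a8, chr3:90695722-90695971 (minus) for S100a9, chr5:100572206-100572455 (minus) for the first of the Plac8 windows, and chr2:32387740-32387989 (minus) for Lcn2. Capitals mark matches on either strand to GCAAT, a core of the C/EBP site, and GAGGAA, a PU.1 core.
S100a8: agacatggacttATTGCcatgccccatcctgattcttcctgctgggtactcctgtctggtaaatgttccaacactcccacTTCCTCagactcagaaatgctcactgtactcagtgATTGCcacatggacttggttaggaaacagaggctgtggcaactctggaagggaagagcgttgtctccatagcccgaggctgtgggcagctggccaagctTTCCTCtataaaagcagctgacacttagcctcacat
S100a9: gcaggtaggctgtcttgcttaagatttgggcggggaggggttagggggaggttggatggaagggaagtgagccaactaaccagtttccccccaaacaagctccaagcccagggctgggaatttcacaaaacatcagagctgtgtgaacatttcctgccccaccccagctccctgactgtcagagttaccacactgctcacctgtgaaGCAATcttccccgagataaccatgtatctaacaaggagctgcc
Plac8: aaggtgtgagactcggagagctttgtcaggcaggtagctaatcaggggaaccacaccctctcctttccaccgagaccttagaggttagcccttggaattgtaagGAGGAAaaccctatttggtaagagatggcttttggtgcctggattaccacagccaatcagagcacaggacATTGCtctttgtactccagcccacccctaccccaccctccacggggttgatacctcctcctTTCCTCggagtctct
Lcn2: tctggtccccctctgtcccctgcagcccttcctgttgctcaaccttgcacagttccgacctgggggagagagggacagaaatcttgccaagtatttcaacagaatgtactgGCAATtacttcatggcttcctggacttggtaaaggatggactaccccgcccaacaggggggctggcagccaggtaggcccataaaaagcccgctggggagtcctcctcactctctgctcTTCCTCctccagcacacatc

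All 8 members matched the promoter table, with 9 windows because Plac8 has several starts. GCAAT was in 8 of the 9 windows and in 23.1% of 32851 windows of the same length. GAGGAA was in 5 of the 9, those of S100a8, Plac8, Ltf, Lcn2 and Csf3r, and in 23.3% of all windows. TGTTTAC, a FoxO core, was in 0 of the 9 and in 3.17% of all windows. In Lcn2 the GCAAT match began 139 bases before the start, and in S100a9 it began 43 bases before it. Such matches describe the letters only, and the motifs share no bases with each other in these 4 windows.

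The plot of member levels by array shows the 8 genes in 2 kinds. S100a8, S100a9, Plac8 and Lcn2 ranged widely over the 14 arrays, by 5.15, 6.22, 4.65 and 3.32 on the log2 scale, against a median range of 1.10 over the 13034 genes tested. Ngp, Ltf and Csf3r ranged by 0.53, 0.76 and 0.64, below that median. Camp ranged by 4.17, but 7 of its 14 values stood at the deposited floor of 0. Levels are set beside each other within a gene, or within a marker list, since probe sets differ in brightness.

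**Figure D1:**
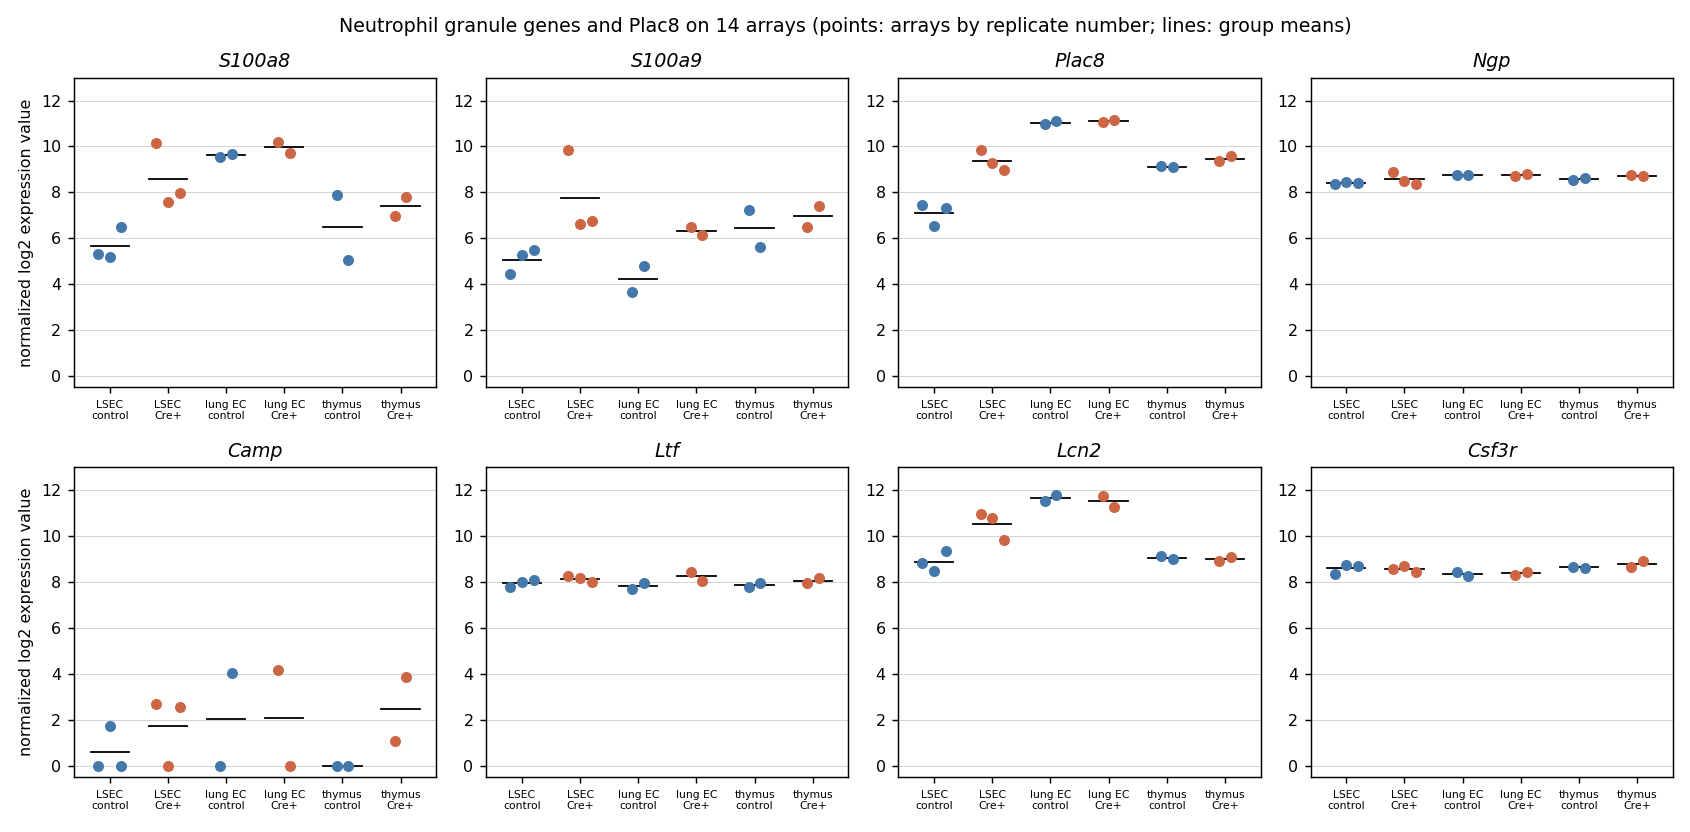
Normalized log2 level of each of the 8 genes (y axis, 1 panel per gene) in the 6 groups (x axis); points are arrays and lines are group means. S100a8, S100a9, Plac8 and Lcn2 spread over 3.32 to 6.22 log2 units, whereas Ngp, Ltf and Csf3r stay within 0.76.

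S100a8 encodes the calprotectin subunit also called MRP8. Its levels were 5.31, 5.19 and 6.48 in the 3 control LSEC arrays, and 10.16, 7.59 and 7.95 in the 3 Cre+ LSEC arrays. Every Cre+ array lay above every control array, by at least 1.12, and the means of 5.66 ± 0.71 and 8.57 ± 1.39 (SD, n = 3 each) differed by 2.91, or 7.50-fold. Because S100a8 was picked for this difference, no test is attached to it, and its size is uncertain because the control mean lies under 6.87, the limit set for dim genes. Cre+ array 1 stood far above the other Cre+ arrays, and without it the difference was 2.11, or 4.33-fold.

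In lung endothelial cells S100a8 stood at 9.55 and 9.67 in controls and at 10.20 and 9.71 in Cre+ arrays, at or near the top of its whole range. The difference of 0.34 (95% interval -1.67 to 2.36) did not pass (limma, adjusted p = 1). In thymus it was 7.88 and 5.05 in controls and 6.97 and 7.82 in Cre+ arrays, and the control arrays alone spanned the Cre+ ones. That difference of 0.92 did not pass either (adjusted p = 0.747). Ordered by mean, S100a8 ran from lung Cre+ and lung control through LSEC Cre+, thymus Cre+ and thymus control down to LSEC control, and all neighbours in that order but the 2 lung groups had overlapping arrays.

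S100a9 encodes the partner subunit, MRP14. It read 4.44, 5.29 and 5.46 in control LSEC and 9.86, 6.62 and 6.75 in Cre+ LSEC. The groups did not overlap, with a gap of 1.16, and the means of 5.06 ± 0.55 and 7.74 ± 1.83 (SD, n = 3 each) differed by 2.68, or 6.41-fold. Its mean over the arrays of a tissue was under 6.87 in all 3 tissues, so it was not tested with the other genes, and in a fit without that filter the difference did not pass (limma, adjusted p = 0.13). As for S100a8, Cre+ array 1 carried the highest value, and without it the difference was 1.62, or 3.08-fold.

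In lung S100a9 read 3.64 and 4.79 in controls and 6.50 and 6.16 in Cre+ arrays, groups that did not overlap and whose means differed by 2.12 (limma without the filter, adjusted p = 1). The thymus values were 7.24 and 5.63 in controls and 6.50 and 7.40 in Cre+ arrays, which overlapped. By mean, the calprotectin subunits had different orders of groups: control lung was the lowest group for S100a9 and the second highest for S100a8. S100a9 lay under the limit for dim genes in each tissue, so its order is uncertain. All neighbours in that order but lung Cre+ and control LSEC had overlapping arrays. Across all 14 arrays the levels of the subunits correlated at 0.31, a description over arrays that share tissues, while S100a8 correlated with Plac8 at 0.855 and with Lcn2 at 0.879. S100a8 and Plac8 were both picked for their rise in the LSEC arrays among these. Their likeness is thus partly fixed by that choice, and nothing is read from it.

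Plac8 encodes a small cysteine-rich protein named for the placenta. Control LSEC read 7.46, 6.51 and 7.33, and the Cre+ LSEC arrays read 9.85, 9.28 and 8.99. Every Cre+ array was above every control array, with a gap of 1.53, and the means of 7.10 ± 0.51 and 9.37 ± 0.44 (SD, n = 3 each) differed by 2.27, or 4.82-fold, again without a test because the gene was picked for it. Leaving out any 1 of the 6 arrays gave between 3.93-fold and 5.51-fold.

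Plac8 was highest in lung, at 10.96 and 11.12 in controls and 11.08 and 11.16 in Cre+ arrays, a difference of 0.08 (95% interval -0.58 to 0.74; limma, adjusted p = 1). In thymus it stood at 9.15 and 9.10 in controls and 9.35 and 9.60 in Cre+ arrays, which did not overlap but differed by only 0.35 (adjusted p = 0.705). Its Cre+ LSEC levels overlapped those of thymus and lay below every lung array. Control LSEC stood below every array of the other groups.

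Lcn2 encodes lipocalin 2, which binds the iron carriers of bacteria. Control LSEC read 8.82, 8.48 and 9.37 and Cre+ LSEC read 10.97, 10.81 and 9.85, with no overlap and a gap of 0.48. The means of 8.89 ± 0.45 and 10.54 ± 0.60 (SD, n = 3 each) differed by 1.65 (SE 0.29, 95% interval 1.02 to 2.29), or 3.15-fold, and this rise passed the test (limma, adjusted p = 0.00629). Of the 4 tested members that the choice did not use in LSEC, Lcn2 was the 1 that passed as higher, where 2.81% of the 13034 genes tested were called higher. With S100a8 and Plac8, 3 of the 6 tested members did not overlap and were higher, against 12.5% of all genes tested, but 2 of the 3 were picked for it and nothing is read from that count. The Lcn2 call was lost when the fit held only the 6 LSEC arrays (limma, adjusted p = 0.0551). All members, Lcn2 included, were chosen with earlier results of these data known. The Lcn2 call may therefore not be independent of that choice.

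In lung Lcn2 stood at 11.55 and 11.79 in controls and 11.77 and 11.26 in Cre+ arrays, overlapping and differing by -0.16 (limma, adjusted p = 1). In thymus its 4 values lay between 8.91 and 9.12, with overlapping groups that differed by -0.05 (adjusted p = 0.977). The Cre effect on Lcn2 in LSEC exceeded that in lung by 1.81 (95% interval 0.81 to 2.81), which did not pass over all genes (limma, adjusted p = 0.135), although it did without LSEC Cre+ array 3 (2.15, adjusted p = 0.0265). None of the 4 tested members outside the choice passed in that difference of effects, where 0.614% of all genes did (limma, 80 of 13034), and 1 of the 4, Lcn2, had an unadjusted p under 0.05.

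**Figure D2:**
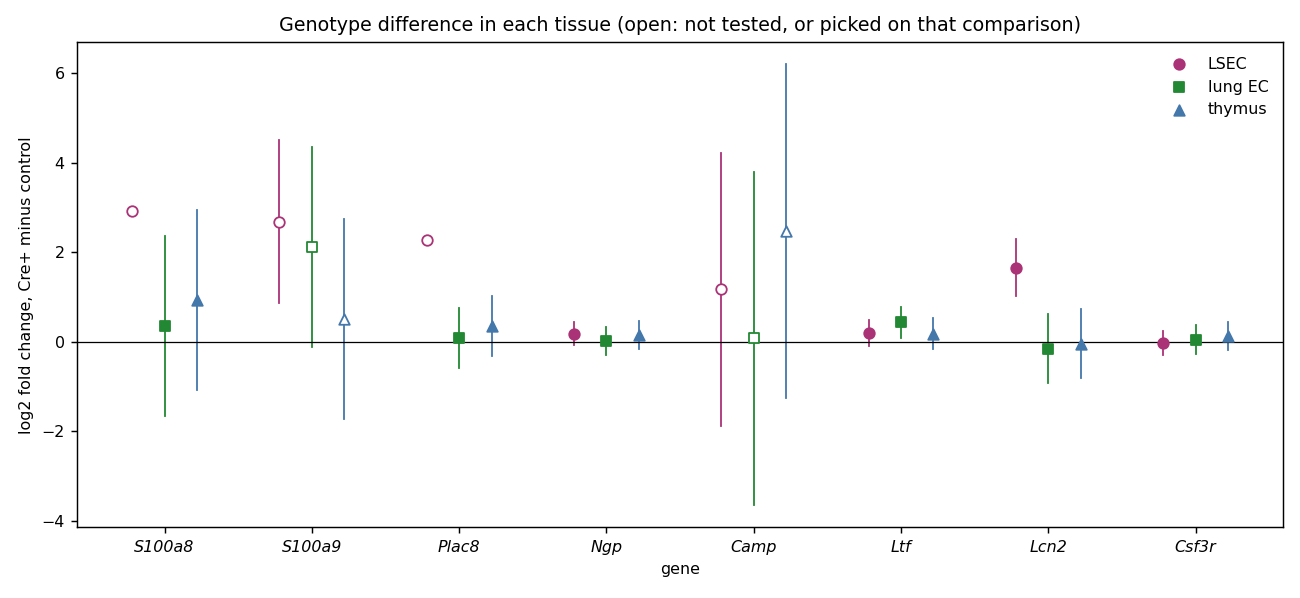
Cre+ minus control difference in log2 level (y axis) of the 8 genes (x axis) in LSEC, lung endothelial cells and thymus; bars are 95% intervals from limma. Open symbols are S100a8 and Plac8 in LSEC, picked on that difference and drawn with no bar, and S100a9 and Camp, whose bars come from the fit without the filter on dim genes. Lcn2 in LSEC lies at 1.65, and Ngp, Ltf and Csf3r lie within 0.43 of 0 in each tissue.

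The other secondary granule genes stayed near their control levels in Cre+ LSEC or near the floor. Ngp, which encodes neutrophilic granule protein, read 8.36, 8.46 and 8.41 in control LSEC, and 8.89, 8.50 and 8.36 in the Cre+ arrays, overlapping groups that differed by 0.17 (95% interval -0.08 to 0.43; limma, adjusted p = 0.457). Ltf, which encodes the iron-binding lactoferrin, read 7.78, 7.99 and 8.10 in control LSEC, and 8.24, 8.17 and 8.02 in the Cre+ arrays, a difference of 0.19 (95% interval -0.10 to 0.47; adjusted p = 0.485). These intervals leave out a rise in probe set signal of the size seen for Lcn2. The signals of Ngp and Ltf varied little in any tissue, however. They ranged by 0.53 and 0.76 over all arrays, against a median range of 1.10 over the genes tested. Ngp had means of 8.74 in control lung and 8.58 in control thymus, and Ltf had 7.83 and 7.89. Whether these probe sets follow the amount of transcript was not tested, so the intervals limit the signal and not the transcript. Camp, which encodes the antimicrobial cathelicidin, was listed at 0 in 2 of 3 control LSEC arrays and at 1.71 in the other, and at 2.68, 0 and 2.53 in Cre+ LSEC, values too near the floor to rank.

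Csf3r read 8.37, 8.75 and 8.71 in control LSEC, and 8.58, 8.71 and 8.44 in the Cre+ arrays. The groups overlapped and differed by -0.03 (95% interval -0.30 to 0.23; limma, adjusted p = 0.905). In lung Csf3r lay between 8.25 and 8.45 and in thymus between 8.63 and 8.90, so that its highest array stood only 0.64 above its lowest. The median range over the genes tested was 1.10. Whether this probe set follows the amount of transcript was not tested either, so the interval limits the signal and not the transcript.

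In lung, 0 of the 6 tested members passed between Cre+ and control, where 0.107% of all genes tested did (limma, 14 of 13034). Ltf was the 1 of the 6 with an unadjusted p under 0.05. It read 7.70 and 7.97 in controls and 8.46 and 8.06 in Cre+ arrays, a difference of 0.43 (limma, adjusted p = 0.953). S100a8 and Ltf were the 2 of the 6 tested members that did not overlap and were higher, against 21.8% of all genes, a share that 2 arrays per group reach often. Ngp lay between 8.72 and 8.79 in all 4 lung arrays. Camp read 0 and 4.02 in lung controls and 4.17 and 0 in Cre+ arrays.

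In thymus, 0 of the 6 tested members passed, where 0.414% of all genes did (limma, 54 of 13034), and 0 of the 6 had an unadjusted p under 0.05. Plac8 and Ngp were the 2 of 6 without overlap and higher, near the 23.1% of all genes tested. Ngp read 8.53 and 8.63 in controls and 8.74 and 8.70 in Cre+ arrays, a difference of 0.14 (adjusted p = 0.757), and Ltf read 7.80 and 7.98 against 7.96 and 8.17. Camp was listed at 0 in both control arrays and at 1.08 and 3.86 in Cre+ arrays. None of the 6 differed in its Cre effect between thymus and lung, where 0.0307% of all genes did (limma, 4 of 13034), nor had any an unadjusted p under 0.05. The difference was 0.58 for S100a8 (adjusted p = 0.969) and 0.27 for Plac8 (adjusted p = 0.962).

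The control tissues also differed from each other in several members. Lcn2 was 6.88-fold lower in control LSEC than in control lung endothelial cells (log2 difference -2.78, 95% interval -3.49 to -2.08; limma, adjusted p = 4.15e-05). It was the 1 of the 4 tested members outside the choice that passed as lower, where 20.2% of all genes did. S100a8 and Plac8 differed by -3.95 and -3.94 there, described only, since control LSEC entered their choice. Ngp differed by -0.33 and missed the threshold (adjusted p = 0.0564), and passed it under several other settings, with adjusted p from 0.0224 (values as deposited) to 0.0465 (a stricter filter).

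In control thymus against control lung, 3 of the 6 tested members were lower and passed, where 32.7% of all genes tested did. Lcn2 differed by -2.61 (limma, adjusted p = 5.2e-05) and Plac8 by -1.92 (adjusted p = 0.000177), with no overlap. S100a8 differed by -3.14 (adjusted p = 0.011), a call lost without thymus control array 2, when the difference was -1.73 (adjusted p = 0.131). S100a9 went the other way, higher in thymus by 2.22, and did not pass without the filter (adjusted p = 0.1). These contrasts share the control lung arrays with those above.

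The array labelled LSEC Cre+ replicate 1 was the highest of its group for 7 of the 8 members, whereas it was the highest for 30.0% of all genes tested. It was also the highest for 20 of 28 other neutrophil genes on the array. Its 8 remaining neutrophil markers summed to 11.50 on the log2 scale, against 10.68 and 10.58 in the other Cre+ LSEC arrays. Clec4d was the brightest of them, and their mean log2 level was 7.42 on this array, against 6.91 and 6.67. Hdc, also listed as a mast cell marker, is 1 of the 8 and read 9.19 on this array, against 7.45 and 8.58. Its 14 monocyte and macrophage markers summed to 14.38, against 13.33 and 13.25. Among controls, LSEC array 3 was high in the same lists, at 11.54 and 14.73, and it held the highest control value of S100a8, S100a9, Lcn2 and Ltf. Its mean log2 level of the neutrophil markers was 6.84, against 6.72 and 6.65 in the other control LSEC arrays. Without Cre+ array 1 the LSEC differences were 2.11 for S100a8, 1.62 for S100a9, 2.03 for Plac8 and 1.44 for Lcn2 (limma, adjusted p = 0.0243 for Lcn2). The part of these cells in the member values was not tested.

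Between the genotypes those sums overlapped. The 8 neutrophil markers outside the members spanned 10.8 to 11.5 in control and 10.6 to 11.5 in Cre+ LSEC, and the monocyte and macrophage markers 13.7 to 14.7 and 13.3 to 14.4. None of either list was at 0 in any LSEC array. Of the 8 neutrophil markers, Clec4d was the brightest in each LSEC array, at 9.47 to 11.14, and weighed most in their sum. The mean log2 level of the 8, in which each gene counts alike, also overlapped. It was 6.65 to 6.84 in control and 6.67 to 7.42 in Cre+ LSEC. Hdc is 1 of the 8 and is also among the mast cell markers below. It read 5.97, 5.99 and 5.48 in control LSEC and 9.19, 7.45 and 8.58 in Cre+ LSEC, so it raised the Cre+ means. For the counts that follow, 790 of all 13034 genes tested were called in LSEC, 366 of them (2.81% of all) higher. Of the 11 mast cell and basophil markers on the array, 8 were tested and 3 were higher in Cre+ LSEC: Tpsab1, a tryptase, by 3.50 (limma, adjusted p = 0.00517), Hdc, which makes histamine, by 2.59 (adjusted p = 0.00349), and Cpa3, a mast cell protease, by 2.42 (adjusted p = 0.00694). Kit, the mast cell growth factor receptor also found on other cells, fell by 1.17 (adjusted p = 0.0065). Hdc is also made by neutrophils and was the 1 of 6 tested neutrophil markers that rose. The mast cell sum spanned 10.58 to 10.97 in control and 10.87 to 11.73 in Cre+ LSEC. The mean log2 level of the 11 markers did not overlap, at 6.23 to 6.39 in control and 6.76 to 7.57 in Cre+ LSEC. Of the 8 tested, 7 differed upward, called or not. The part of mast cells in the member values was not tested. Among marker genes of other cells, the hepatocyte gene Ttr rose by 0.54 in Cre+ LSEC (limma, adjusted p = 0.0435), while the natural killer cell gene Klrd1 fell by 0.49 and the dendritic cell genes Tcf4 and H2-Ab1 fell by 0.73 and 0.75. Of 10 mesenchymal genes 2 fell, with differences of -0.69 for Col1a2 and -0.62 for Pdgfra. Of 12 pan-endothelial genes 3 fell, with differences of -1.42 for Cldn5, -1.25 for Robo4 and -0.72 for Pecam1, and their sum was 14.39 to 14.69 in control and 14.06 to 14.34 in Cre+ LSEC, with no overlap. The part of these cells in the member values was not tested either.

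**Figure D3:**
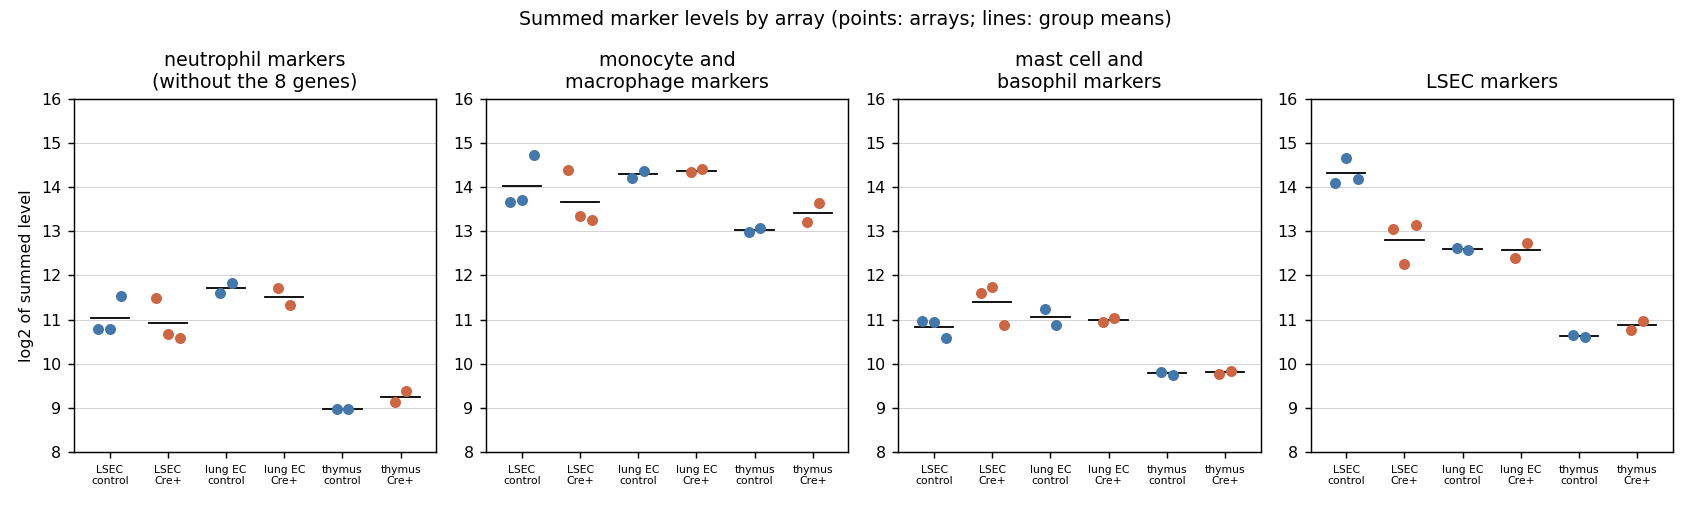
Log2 of the summed level (y axis) of 8 neutrophil, 14 monocyte and macrophage, 11 mast cell and basophil, and 10 LSEC marker genes by array in the 6 groups (x axis); points are arrays and lines are group means. The neutrophil and macrophage sums of control and Cre+ LSEC overlap, at 10.8 to 11.5 against 10.6 to 11.5 for neutrophil genes, while the LSEC sums do not, at 14.1 to 14.7 against 12.2 to 13.1. In LSEC arrays Clec4d weighs most in the neutrophil sum.

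Other genes of neutrophil granules and secretion showed no called change in Cre+ LSEC. Of 15 on the array beside the members, 12 were tested, 0 passed in either direction (limma, 2 of 12 at an unadjusted p under 0.05), and their median difference was -0.07, against 0.01 for all genes tested. Mmp8, neutrophil collagenase, read 6.43, 5.80 and 7.89 in control LSEC, and 8.31, 7.09 and 6.68 in the Cre+ arrays, overlapping. Chil3, a chitinase-like protein of neutrophils and macrophages, read 10.30, 10.28 and 11.76 and then 12.36, 11.47 and 11.51, overlapping too, with a difference of 1.00 (limma, adjusted p = 0.14). Between the control tissues, 2 of these 12 genes were called lower in LSEC than in lung and 1 higher, with a median difference of -0.13. Of all 13034 genes tested, 6011 were called in that contrast, and 20.2% of all were called lower. Nothing is thus read from the counts among the 12. The 2 lower ones of the 12 were Mmp8 (difference -4.16, limma, adjusted p = 0.000109) and Chil3 (-2.35, adjusted p = 0.000601). The higher one was Fcnb, a ficolin of neutrophil granules (0.43, limma, adjusted p = 0.000698). Fcnb lay between 7.24 and 7.34 in lung and between 7.72 and 7.77 in control LSEC. In thymus it read 7.69 and 7.54 in controls and 7.61 and 7.66 in Cre+ arrays. Its signal thus varied little over all arrays, and whether its probe set follows the amount of transcript was not tested.

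**Figure D4:**
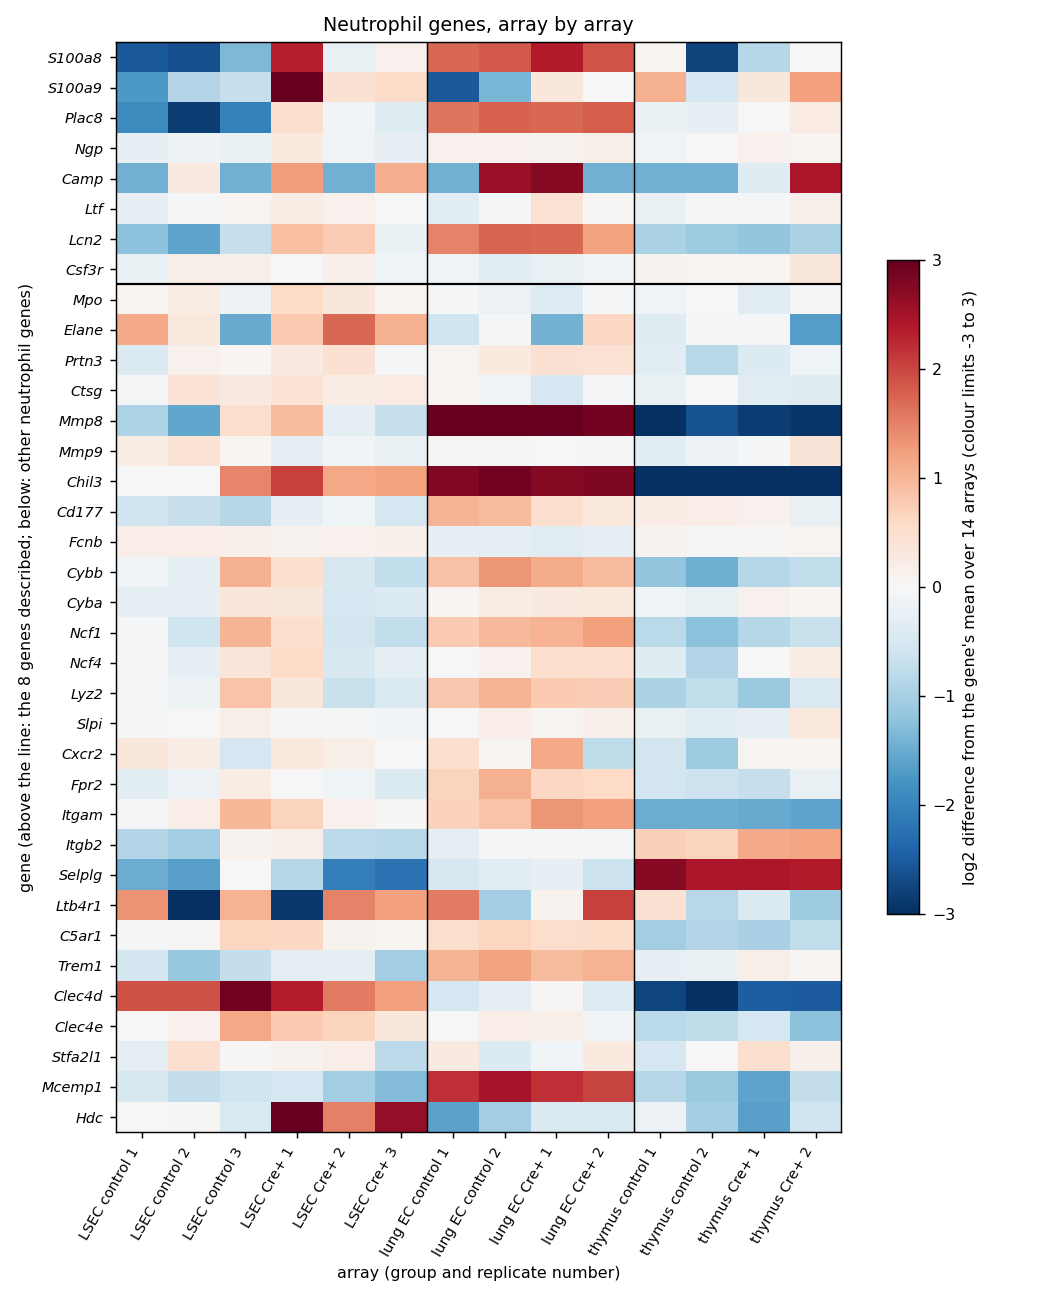
Level of the members and other neutrophil genes (y axis) in each of the 14 arrays (x axis), coloured by the log2 difference from the gene's mean over all 14 arrays, with colours limited at -3 and 3. S100a8, Plac8, Lcn2, Mmp8 and Chil3 have high lung values, Fcnb is lowest in lung, Mpo and Ctsg show no high lung values, and Ngp, Ltf and Csf3r stay near 0 throughout.

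The genes that act around the members were followed in lists. Of 8 tested surface and migration genes besides Csf3r, such as the integrin gene Itgam and the complement receptor gene C5ar1, 0 passed in Cre+ LSEC (limma, also 0 at an unadjusted p under 0.05), with a median difference of -0.01. Of 8 granulocyte transcription factor genes, 0 passed there (3 of 8 at an unadjusted p under 0.05, median -0.17), and Cebpb, whose protein binds C/EBP sites, differed by 0.29 (limma, adjusted p = 0.344). In thymus 1 of the 8 rose, Klf5, by 0.68 (limma, adjusted p = 0.038), where 0.414% of all genes tested were called (54 of 13034). Of 8 tested members of the S100 family outside calprotectin, 0 passed in LSEC (3 of 8 at an unadjusted p under 0.05, median -0.01) and 1 fell in thymus, S100a10, by 0.57 (adjusted p = 0.0199).

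Among 11 tested growth factors and chemoattractants of neutrophils, 2 rose in Cre+ LSEC, where 2.81% of all genes tested did. Il6, an inducer of acute phase genes, rose by 3.92 (limma, adjusted p = 0.0005), and Il1a, an alarm cytokine, by 1.80 (adjusted p = 0.000167). Csf3, which encodes G-CSF, differed by 0.16 (adjusted p = 0.688), and the neutrophil attractants Cxcl1 and Cxcl2 by 0.29 and -0.25, none of which passed. Of 10 tested acute phase genes, 1 rose, Lrg1, a glycoprotein that is also stored in neutrophil granules, by 2.15 (adjusted p = 0.000818).

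Of 8 receptor and relay genes for calprotectin, 2 fell in Cre+ LSEC and 0 rose. Of all 13034 genes tested, 790 were called there, 366 of them higher and the rest lower. Tlr4, the lipopolysaccharide receptor that calprotectin can engage, fell by 0.60 (limma, adjusted p = 0.00902), and its co-receptor gene Cd14, also a monocyte marker, fell by 1.45 (adjusted p = 0.00148). The 13 tested genes listed for G-CSF and IL-6 receptor signalling include the ligand gene Il6, already counted above. Il6 was the only 1 of the 13 called higher. The kinase gene Jak1 fell, by 0.52 (limma, adjusted p = 0.00902). In lung, none of the 77 tested genes of these lists passed (limma, 3 at an unadjusted p under 0.05).

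The genes whose levels were most like those of S100a8 and Plac8 over the 14 arrays were named by Pearson's correlation among all genes tested. For S100a8 they were Tsc22d1 (0.933), Tmem119 (0.924), Stard13 (0.891), Stat3 (0.883) and Iscu (0.879), and for Plac8 they were Tsc22d1 (0.955), S1pr3 (0.953), Prdx3 (0.945), Zc3h7b (0.932) and Gpc1 (0.932). All 9 had means that increased from control LSEC through Cre+ LSEC to control lung, an order that their selection by likeness to S100a8 and Plac8 fixes and that supports nothing further. S1pr3, a sphingosine 1-phosphate receptor gene, had means of 4.49 in control LSEC, 6.99 in Cre+ LSEC, 11.32 in control lung and 7.71 in control thymus, in the same order as Plac8 at 7.10, 9.37, 11.04 and 9.12 for all pairs but Cre+ LSEC and control thymus. The arrays share tissues, so these correlations are descriptions over 14 arrays and not independent points.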

How the data were processed

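Expression was measured in 14 mouse RNA samples (LSEC 3 control and 3 Cre+, lung endothelial cells 2 and 2, thymus 2 and 2). Per the labels' protocols, Trizol and RNeasy RNA was made into biotin-labelled cRNA from an oligo-dT primer. The authors deposited 1 value per probe set and array, from 0 to 13.8, read here as log2 from that range; for their summarization, normalization and log base, the method is not given in the sources used here.

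Array medians spread over 0.282, so all arrays were quantile normalized. A gene was its brightest probe set with 1 symbol, named from the platform annotation and the RefSeq names of GRCm38.p6. Of 18193 genes, 13034 with a highest tissue mean of at least 6.87 (40th percentile) were tested, 6 of the 8 members among them. One model of 6 group means over the 14 arrays was fitted in limma 3.58.1 (R 4.3.3; 8 residual and 3.21 prior degrees of freedom), adjusted by Benjamini-Hochberg within each contrast at 0.05, and checked on simulated data. For arrays, their number limits the precision.

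The members and lists were chosen with earlier results of these data known. List counts leave out the members. Named genes were the members, up to 3 called genes of each list with the largest change and all where 5 or fewer passed, marker genes that show a group, and the 5 tested genes most correlated with S100a8 and with Plac8. Mmp8, Chil3, Fcnb, Mpo, Ctsg, Cebpb, Csf3, Cxcl1, Cxcl2, Itgam, C5ar1 and S1pr3's group means were added after their values were seen. Alternatives were the scaling, the filter, the probe set rule, the spread model, the arrays in the fit, a block for replicate number, and single arrays left out.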

Additional observations from a re-analysis of the deposited data

How the results depend on the processing

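Of the members' calls, Lcn2 in LSEC was the one lost under another model: adjusted p was 0.0551 with only the arrays compared and 0.0606 with a replicate block (limma), and leaving out each LSEC array gave differences of 1.44 to 2.00, all called, with adjusted p up to 0.0282. Besides the changes given with the results, Csf3r in control thymus against control lung passed with array weights (0.036) and with only the arrays compared (0.0441), Csf3r in control LSEC against control lung passed without LSEC control array 1 (0.0289), and S100a9 in control thymus against control lung passed without thymus control array 2 (3.03, adjusted p = 0.0432). No other member's call changed and none reversed; the causes were not tested.

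Counts of genes called moved more. The counts were 790 in LSEC, 14 in lung, 54 in thymus, 80 for LSEC minus lung, 4 for thymus minus lung, 6011 for control LSEC against lung and 7889 for control thymus against lung. Thymus gave 34 with median centring and 28 with the values as deposited. Without the filter, lung gave 2, thymus 24 and LSEC minus lung 30. A filter at the 60th percentile gave 109 in thymus and 12 for thymus minus lung. The mean of all probe sets gave 31 in thymus and 13 for thymus minus lung. Every probe set gave 22 in lung, 96 in thymus, 1369 in LSEC, 7 for thymus minus lung, 10279 for control LSEC and 14246 for control thymus against lung, counting probe sets and not genes. Trend and robust settings gave 116 in thymus, 20 for thymus minus lung and 125 for LSEC minus lung. Array weights gave 54 in lung, 29 in thymus, 7 for thymus minus lung and 168 for LSEC minus lung. Only the arrays compared gave 4 in lung, 4 in thymus, 358 in LSEC and 38 for LSEC minus lung. A replicate block gave 0 in lung, 10 in thymus, 352 in LSEC, 2 for thymus minus lung and 1 for LSEC minus lung; it could not be fitted for the control tissues. Leaving out each array gave 493 to 620 in LSEC, 2 to 4 in lung, 14 to 231 in thymus, 3 to 21 for thymus minus lung, 4 to 96 for LSEC minus lung, 4176 to 5656 for control LSEC and 6727 to 6809 for control thymus against lung.

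Same-numbered control and Cre+ arrays deviated from their group means with correlations of -0.309, -0.0914 and -0.255 in LSEC, -0.235 in lung and 0.0521 in thymus, so the numbers were not taken as pairs. Camp and S100a9 lie near or below the limit for dim genes, where array signal cannot rank small differences, and 2 or 3 arrays per group limit every interval.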
